A study of Mus musculus with 14 samples.

Results

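The 4 libraries described here were made from bone marrow cells of untreated reporter mice, and they were chosen by their sample titles, which name them as non-treated. They are 4 of the 14 libraries of a mouse study that set untreated marrow (4 libraries) beside total body irradiation from a caesium source (5), a non-targeted IgG radioimmunotherapy (3) and a CD45-targeted radioimmunotherapy (2). All 14 carry the same genotype, Cdh5 CRE with Rosa26 TdTomato, and the same sort: cells negative for lineage antigens and for CD45 and positive for TdTomato were collected by flow cytometry and labelled as marrow endothelium. The labels call the mice of these 4 libraries non-treated controls. The strain, age and sex of the mice, whether the Cre is inducible, the antibodies of the lineage panel and whether each library came from 1 mouse or a pool are not given in the labels. Nothing in the labels says that the 4 libraries came from separate sorts, so the spread between them may be partly technical. No contrast between groups was made, and no p is given: every value is a level or a spread within the untreated libraries.

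Cdh5 encodes VE-cadherin, the adhesion molecule of endothelial cell junctions. In a Cre reporter of this kind the recombinase removes a stop signal once, and the fluorescent protein then stays on in the cell and in all of its descendants, whether or not they still express the driver gene. Cdh5 is also active in the haemogenic endothelium of the embryo, from which the definitive blood lineages arise. Adult marrow vessels are mostly sinusoids, with arterioles in the minority, and around them lie Cxcl12- and Lepr-expressing stromal cells and, on bone surfaces, osteoblasts. CD45, encoded by Ptprc, is carried by nearly all white blood cells and their progenitors, while maturing red cells lose it.

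Reads were summed per gene by the authors as whole-number counts. The libraries held 27147900 ± 2902610 counts (SD, n = 4), between 24787510 and 31077588. A count of 3, taken as the floor of detection, corresponded to 0.0965 to 0.121 CPM, that is, counts scaled to a library total of 1000000. Levels are given in TPM, which first divide each count by the length of the gene's merged exons and then scale to the same total, wherever genes are compared with each other, and in CPM where the counts of a group of genes are summed. Of the genes named by their TPM, Ptprc, Cd34, Col1a2, Vcam1, Mef2c, Irf8, H2-Ab1, Il4 and Tgfb1 stood 1.55 to 2.53 times higher when the longest transcript was taken as the length. Replicate 1 had the most counts and the fewest genes above the floor, 19750, against 21532, 21265 and 21129 in replicates 2 to 4. After all libraries were thinned to 24787510 counts it still had the fewest, 19425 against 21102 to 21308. Of 21849 protein-coding genes, 11968 (54.8%) were above the floor in all 4 libraries and 6854 (31.4%) were at or under it in all 4. Counts of members of a gene list above the floor in every library are to be read beside the 54.8%. The median level was 1.97 TPM over all protein-coding genes and 17.0 TPM over the 11968. Replicate 3 stood apart in B-lineage genes and replicates 2 and 3 in immunoglobulin genes, and replicate 2 was low in immediate early genes and high in ribosomal protein genes.

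The label was checked first against the markers of vessels. Cdh5, the gene whose promoter drives the Cre (chromosome 8, 104101625 to 104144511, GRCm38), was counted 4, 0, 2 and 6 times in replicates 1 to 4. Its level was 0.0657 ± 0.0597 TPM (SD, n = 4, as for every mean ± SD here), and 2 of the 4 libraries were at or under the floor. Flt1, a receptor for VEGF-A, had a single count in each library, and Cldn5, a tight junction protein, Mmrn2, an endothelial matrix protein, and Sox17, an arterial transcription factor, had at most 1 count in any. Kdr, the main VEGF receptor of endothelium, was counted 29, 0, 0 and 70 times. Emcn, the sialomucin of sinusoids and venous capillaries, was counted 108, 0, 13 and 73 times. Tek, the receptor for angiopoietins, was counted 0, 63, 135 and 155 times, so each of these 3 genes was missing from at least 1 library and present in others. No row of the table was named for TdTomato or Cre, so the reporter itself was not measured here.

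Other genes of the endothelial list were present in every library. Pecam1, an adhesion molecule of endothelium that platelets and several white cells also carry (chromosome 11, 106654217 to 106750628), was counted 1413, 894, 1957 and 1391 times, or 17.7, 11.5, 30.3 and 22.3 TPM. Replicate 3 was the highest and replicate 2 the lowest. Egfl7, a secreted vessel factor, led the list at 34.97 ± 5.55 TPM. Eng, a co-receptor for TGF-beta ligands, stood at 20.8 ± 3.15 TPM, and its libraries overlapped with those of Pecam1 at 20.5 ± 7.92 TPM and of Plvap, the protein of endothelial fenestral diaphragms, at 15.4 ± 2.45 TPM. Erg, an ETS transcription factor, stood at 5.85 ± 0.849 TPM, below Plvap in all 4 libraries, and Tie1, an orphan receptor related to Tek, at 4.58 ± 0.598 TPM. Vwf, the platelet-binding clotting protein, stood at 2.97 ± 0.970 TPM. All of these except Plvap are also known from blood stem cells or the megakaryocyte lineage. Of the 20 genes of the list, 8 were above the floor in all 4 libraries, against 54.8% of protein-coding genes. At or under it in all 4 were 4, against 31.4%, and the median was 0.789 TPM. That median lies under the 1.97 TPM of all protein-coding genes.

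**Figure D1:**
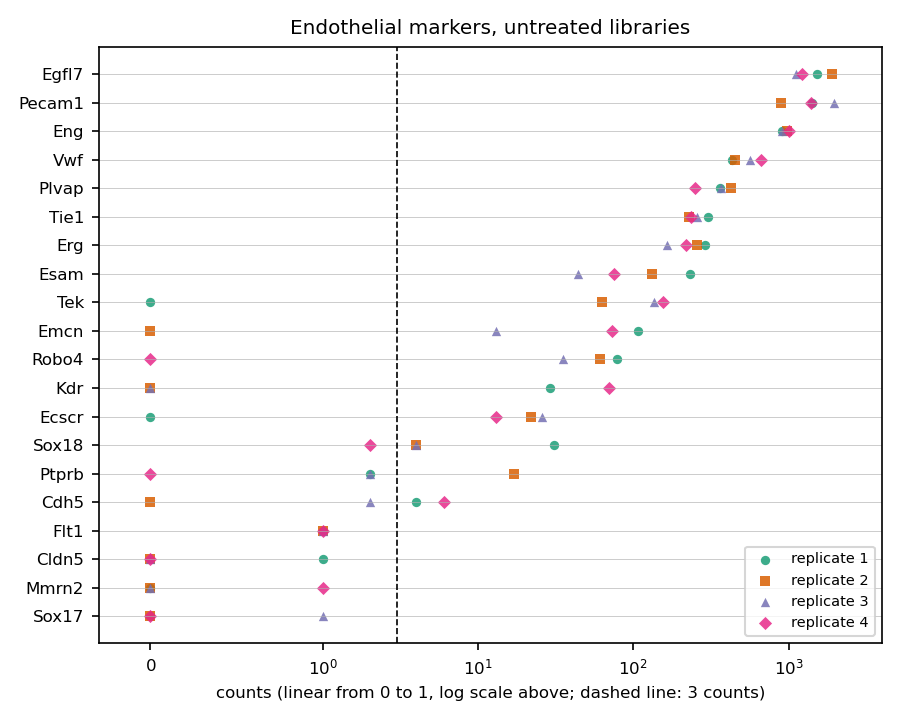
Counts of the 20 genes of the endothelial list (vertical axis, ordered by mean) in the 4 untreated libraries, each with its own symbol; the horizontal axis is linear from 0 to 1 and logarithmic above, and the dashed line marks 3 counts. Pecam1 and Egfl7 lie between 894 and 1957 counts in every library, while Cdh5 lies between 0 and 6 and Flt1 at 1.

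Counts of some genes of single vessel types were scattered too. The share above the floor in all 4 libraries was 54.8% over all protein-coding genes. In the sinusoidal list 5 of 10 genes were above the floor throughout, led by Icam2, an adhesion molecule shared with leukocytes, at 69.5 ± 14.9 TPM, and Vcam1, shared with stroma and macrophages, at 25.1 ± 7.23 TPM. Stab2, a scavenger receptor that marks sinusoids, was counted 70, 1, 22 and 0 times. Lyve1, the hyaluronan receptor of sinusoids and lymphatics, and Clec4g, a sinusoidal lectin, were at 0 in every library, where a count of 0 allows a level of up to 0.121 CPM in the shallowest. In the arteriolar list 7 of 10 genes passed the floor in all libraries, a share above the 54.8%. The largest of them was Ly6a, which is also a stem cell antigen, at 12.3 ± 5.54 TPM. Gja5, a connexin of arterial endothelium, was low but even at 1.76 ± 0.348 TPM, with 121, 96, 115 and 123 counts. Dll4, the arterial Notch ligand, was at 0 in every library, as was Dll1. Among 15 endothelial transcription factors, Gata2 (97.6 TPM), Fli1 (44.0 TPM), Ets1 (21.3 TPM) and Tal1 (22.6 TPM), all shared with blood, were the leading members with Mef2c at 15.4 TPM, while Sox7 and Prox1 were at 0 and Sox17 and Foxf1 had at most 1 count. In total the endothelial list summed to 205 ± 18.5 CPM, the sinusoidal list to 201 ± 47.5 CPM and the arteriolar list to 19.9 ± 4.17 CPM. Vcam1 alone, shared with stroma and macrophages, was 46.7% of the sinusoidal sum. These sums are of bulk RNA, in which fewer cells of a type and less RNA per cell cannot be told apart.

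Genes of maturing blood cells led the most abundant genes. The alpha-globin gene Hba-a1 (chromosome 11, 32283511 to 32284465) ranked first of all protein-coding genes at 11676 ± 3950.4 TPM, the adult beta-globin gene Hbb-bs (chromosome 7, 103826534 to 103828096) second at 10114 ± 3143 TPM, and Prss34, a serine protease of basophils (chromosome 17, 25298394 to 25300165), then at 9832 ± 1989 TPM. Gpx1, a glutathione peroxidase, followed at 6397 ± 270 TPM, and Mpo, the myeloperoxidase of neutrophil and monocyte precursors (chromosome 11, 87793581 to 87804413), at 6274 ± 621 TPM. By count Mpo was the largest of these, with 315712, 255863, 212090 and 203739 counts. Prg2, the eosinophil major basic protein, stood at 4341 ± 1518 TPM, Mcpt8, another basophil protease, at 3879 ± 805 TPM, and the carbonic anhydrases Car2 and Car1, abundant in red cell precursors, at 3638 ± 381 and 3585 ± 641 TPM. Among the 30 leading genes were 6 of the erythroid list, 2 of the granulocyte and monocyte progenitor list, 2 of the basophil and mast cell list and 1 of the eosinophil list, beside 5 ribosomal protein genes and 3 genes encoded in the mitochondrial genome. None of the 30 was in a vessel list. The 10 most counted genes of a library held 4.11 ± 0.297% of its counts, the top 100 held 15.5 ± 0.492% and the top 1000 held 46.3 ± 1.21%. It took 1200 ± 66.9 genes to reach 50% of the counts, so no single product filled a library.

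**Figure D2:**
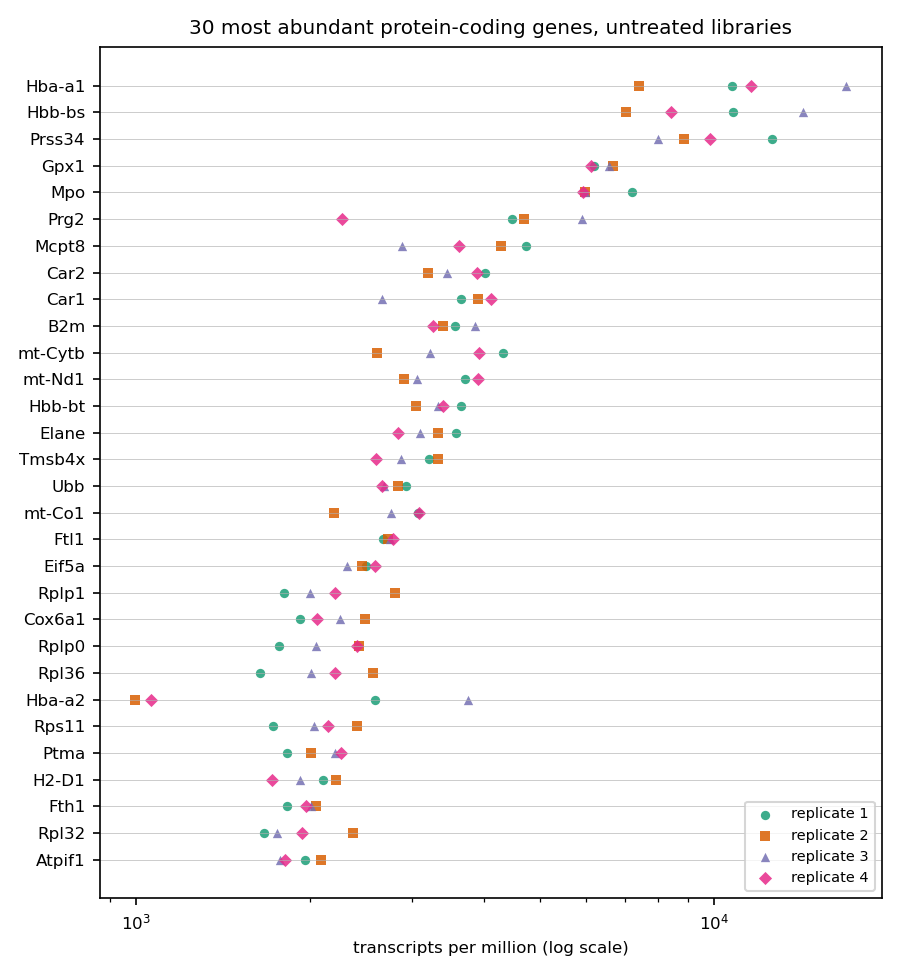
Level in TPM (horizontal, log scale) of the 30 most abundant protein-coding genes in each of the 4 untreated libraries, ordered by mean. Hba-a1, Hbb-bs and Prss34 lead, with means of 11676, 10114 and 9832; Ftl1 and Gpx1 are tight, while Hba-a2 spreads from 997 to 3758.

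The stretch before the start of 4 of these leaders is shown because it sits at the genes that dominate the libraries, 2 erythroid, 1 basophil and 1 granulocytic. Each is the 250 bases before the gene's start in RefSeq on GRCm38.p6, written 5′ to 3′ on the gene's own strand, with every AGATAA or TGATAA (the core bound by GATA factors, searched on both strands) in capitals. The windows are chr11:32283422-32283671 on the plus strand for Hba-a1, chr7:103827929-103828178 on the minus strand for Hbb-bs, chr17:25298144-25298393 on the plus strand for Prss34 and chr11:87793534-87793783 on the plus strand for Mpo. The gene models used for counting reach further upstream than RefSeq for Hba-a1, Hbb-bs and Mpo, so part of those windows lies inside the counted gene.
Hba-a1: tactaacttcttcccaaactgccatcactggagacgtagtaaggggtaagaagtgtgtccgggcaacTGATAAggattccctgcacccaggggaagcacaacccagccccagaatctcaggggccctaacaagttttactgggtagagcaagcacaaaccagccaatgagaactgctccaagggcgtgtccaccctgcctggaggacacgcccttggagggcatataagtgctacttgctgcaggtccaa
Hbb-bs: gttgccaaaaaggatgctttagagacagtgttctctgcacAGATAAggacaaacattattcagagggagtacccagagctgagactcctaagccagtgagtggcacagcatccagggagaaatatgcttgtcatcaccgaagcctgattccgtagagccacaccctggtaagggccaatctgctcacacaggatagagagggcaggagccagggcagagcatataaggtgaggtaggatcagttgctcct
Prss34: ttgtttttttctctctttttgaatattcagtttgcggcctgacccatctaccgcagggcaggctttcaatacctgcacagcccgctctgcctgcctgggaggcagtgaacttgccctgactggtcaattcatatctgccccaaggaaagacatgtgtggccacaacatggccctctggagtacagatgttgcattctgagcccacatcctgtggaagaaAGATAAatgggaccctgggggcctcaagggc
Mpo: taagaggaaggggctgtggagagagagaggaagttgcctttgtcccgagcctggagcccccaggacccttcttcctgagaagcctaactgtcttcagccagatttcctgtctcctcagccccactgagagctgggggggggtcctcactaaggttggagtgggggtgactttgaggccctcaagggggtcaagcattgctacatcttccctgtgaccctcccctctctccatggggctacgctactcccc
Hba-a1 held TGATAA from 183 to 178 bases before the start, Hbb-bs held AGATAA from 210 to 205 and Prss34 held AGATAA from 31 to 26, each on the gene's strand, and the Mpo window held neither. Of 32851 windows of the same length, 16.6% held one of these words. The letters CCAAT stood 88 to 84 bases before the start of Hba-a1 and 76 to 72 before that of Hbb-bs, against 33.8% of windows with CCAAT on either strand. The word CCACACCC, the core bound by Klf1, was found only in the Hbb-bs window among the 4, from 93 to 86 bases before the start, and in 3.2% of all windows. These matches are letters in a window and were not tested as binding sites.

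Genes of red cell precursors had the largest sum of any list. The erythroid list summed to 18711, 15141, 21426 and 17198 CPM in replicates 1 to 4. All 19 measured members were above the floor in every library, against 54.8% of protein-coding genes, with a median of 270.1 TPM. Hba-a1 was at 10759.7, 7412, 16947 and 11586 TPM, highest in replicate 3 and lowest in replicate 2. Its near-identical copy Hba-a2 was at 2587, 997, 3758 and 1062 TPM. The beta-globin genes showed 10769.9, 7048, 14226 and 8414 TPM for Hbb-bs and 3648, 3047, 3335 and 3399 TPM for Hbb-bt. Reads of such copies may be shared or dropped by the counting, so the split within each pair is uncertain. Summed over copies, alpha over beta globin was 1.00 ± 0.153 (0.926, 0.833, 1.18 and 1.07). The embryonic beta-like genes Hbb-y and Hbb-bh2 were at 0 in all 4 libraries. Hbb-bh1 had 25 counts in replicate 4 and 0 elsewhere, and Hba-x at most 24.

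Several genes of red cell precursors varied little between libraries. Klf1, the erythroid Krüppel-like factor, was at 911, 782, 822 and 893 TPM, and its highest library exceeded the lowest only 1.06-fold after scaling of library sizes. Gata1, the master factor of red cells, megakaryocytes and basophils, stood at 270.1 ± 34.9 TPM, Epor, the erythropoietin receptor, at 156 ± 14.7 TPM and Rhd, a blood group membrane protein, at 890.5 ± 81.4 TPM. Other genes of the list were lower in replicate 2, early or late: Tfrc was at 85.2, 59.2, 116 and 113 TPM and Hemgn at 218, 110, 173 and 177 TPM. Not all followed, since Hbb-bt varied only 1.07-fold after scaling and Car1 was lowest in replicate 3. Slc4a1, the band 3 anion exchanger, was at 299, 112, 322 and 271 TPM, and Alas2, the erythroid first enzyme of haem synthesis, at 289.6, 137, 374 and 271 TPM. Replicate 2 was the lowest library for 15 of the 19 erythroid genes and for 9 of the 10 enzymes and carriers of haem synthesis. For comparison, it was the lowest for 33.5% of the 11968 protein-coding genes detected in all libraries. The haem list was complete, with 10 of 10 members in every library, against 54.8% of protein-coding genes. Its median was 167 TPM and its sum 4003 ± 422 CPM. Alad (835 ± 59.6 TPM), which makes porphobilinogen, led it, and Alas2 exceeded the housekeeping Alas1 by 2.87 ± 0.641-fold.

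Granulocyte precursors followed. All 15 genes of the granulocyte and monocyte progenitor list were above the floor in every library, against 54.8% of protein-coding genes. Their median was 90.4 TPM and their sum 13649 ± 1416 CPM, of which Mpo alone was 66.1%. Elane, neutrophil elastase, stood at 3209 ± 315 TPM, Ctsg, cathepsin G, at 1587 ± 235 TPM and Prtn3, proteinase 3, at 703 ± 68.9 TPM. These 4 are the contents of azurophil granules, which are filled at the promyelocyte stage, and their order Mpo, Elane, Ctsg, Prtn3 was the same in each library. Elane over Mpo was 0.496, 0.556, 0.520 and 0.477, a ratio that varied little. Ms4a3, a membrane protein of the same stage, stood at 285 ± 20.99 TPM, and the myeloid transcription factors Irf8 at 90.4 ± 8.08, Gfi1 at 16.2 ± 2.80 and Cebpa at 13.7 ± 2.72 TPM. Lyz2, lysozyme M, stood at 162 ± 8.54 TPM.

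Genes of later neutrophil stages were lower. The neutrophil list summed to 68.2 ± 25.6 CPM, with 7 of 14 members above the floor throughout, against 54.8% of protein-coding genes. Its median was 3.13 TPM, above the 1.97 TPM of all protein-coding genes and under the 17.0 TPM of the detected ones. S100a8, a major protein of mature neutrophil cytosol, was counted 428, 84, 424 and 389 times, and S100a9, its partner, 334, 50, 49 and 355 times. The specific granule genes Ltf (0, 1, 0 and 250 counts) and Ngp (0, 0, 40 and 332 counts) had most of their counts in replicate 4. Chil3 (0, 0, 0 and 35 counts) and the surface antigen Ly6g (0, 0, 0 and 9 counts) had all of theirs there. Lcn2 (2.09 to 4.23 TPM) and Camp (1.34 to 5.01 TPM), of the same list, had counts in every library. Mpo exceeded S100a8 by 149.5-fold, 617-fold, 101-fold and 106-fold in TPM.

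Basophil and eosinophil granule genes were among the leaders. Prss34 was at 12590.4, 8882, 7999 and 9857 TPM and Mcpt8 at 4737, 4272, 2886 and 3622 TPM, with replicate 1 highest and replicate 3 lowest for both. Cpa3, a carboxypeptidase of basophils and mast cells, stood at 505 ± 138 TPM, Fcer1a, the alpha chain of the IgE receptor, at 278 ± 57.2 TPM and Ms4a2, its beta chain, at 68.5 ± 32.2 TPM. Il4, the cytokine of these cells, was detected in every library at 6.99 ± 1.56 TPM. The mast cell proteases were not: Mcpt4 was at 0 throughout, Tpsb2 had at most 2 counts and Cma1 had 13 counts in replicate 3 and 0 elsewhere. The list of 14 genes summed to 7819 ± 1441 CPM with a median of 56.0 TPM. Above the floor in all 4 libraries were 11 members, against 54.8% of protein-coding genes. Prss34 alone was 64.3% of the sum.

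The eosinophil list summed to 2069, 2316, 2820.2 and 1056 CPM, and Prg2 alone was 74.6% of the mean sum. Prg2 was at 4476, 4694, 5921 and 2273 TPM, and Epx, eosinophil peroxidase, at 280.3, 250.3, 378 and 157 TPM, both highest in replicate 3 and lowest in replicate 4. Of the 7 members detected in every library, replicate 3 was the highest for 6 and replicate 4 the lowest for 5, against 22.6% and 14.8% of all detected protein-coding genes. The eosinophil ribonucleases Ear1 (117 ± 47.8 TPM), Ear2 (97.7 ± 42.9 TPM) and Ear6 (97.8 ± 44.7 TPM) are close relatives whose reads may be shared. Siglecf, a sialic acid lectin of eosinophils, stood at 17.1 ± 11.9 TPM, and at 11.2 TPM without replicate 1. The receptors Ccr3 (1, 0, 45 and 35 counts) and Il5ra (160, 0, 114 and 0 counts), which mark mature eosinophils and their precursors, were each at or under the floor in 2 libraries.

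Genes of stem and early progenitor cells were all present. The 20 genes of that list were above the floor in every library, against 54.8% of protein-coding genes, with a median of 18.7 TPM. Cd34, the sialomucin of progenitors and of vessels (chromosome 1, 194938819 to 194961279), was counted 11309, 7644, 5997 and 6475 times, or 121, 83.9, 79.3 and 88.7 TPM. Its level was 176 TPM when the longest transcript was used as the length. Kit, the receptor for stem cell factor, stood at 43.5 ± 13.9 TPM and Flt3, the receptor of lymphoid and myeloid progenitors, at 45.3 ± 15.7 TPM, and their libraries overlapped. Cd48, which multipotent progenitors gain as they leave the stem cell state, stood at 234 ± 31.6 TPM. Genes tied to long-term stem cells were far lower and uneven. Hlf stood at 4.12 ± 1.40 TPM, Procr, the endothelial protein C receptor, at 2.68 ± 0.978 TPM, Slamf1 was counted 122, 4, 35 and 99 times and Mecom 177, 9, 16 and 117 times. Both were lowest in replicate 2.

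Megakaryocyte genes were moderate. The list summed to 431 ± 37.6 CPM with a median of 9.35 TPM. Above the floor throughout were 11 of 14 members, against 54.8% of protein-coding genes. Pf4, platelet factor 4, stood at 289 ± 57.4 TPM, Itga2b, the alphaIIb integrin that early progenitors share, at 75.6 ± 18.3 TPM and Gp9, a subunit of the von Willebrand receptor, at 82.1, 80.2, 86.4 and 48.8 TPM, lowest in replicate 4. Late genes were patchy: Tubb1, the platelet tubulin, was counted 83, 1, 193 and 0 times, and Gp6, the collagen receptor, 159, 47, 85 and 1 times. Ppbp, the platelet basic protein, was at 27.7, 47.9, 74.1 and 14.8 TPM.

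The transcription factors of blood were detected in full, 22 of 22 in every library, against 54.8% of protein-coding genes. Their median was 78.3 TPM and their sum 3620.0 ± 202 CPM. Klf1 (852 ± 60.6 TPM) stood above Myc (387 ± 79.3 TPM) in all 4 libraries, and Myc overlapped with Lmo2 (373 ± 30.7 TPM). Gfi1b (293 ± 56.6 TPM), Gata1 (270.1 ± 34.9 TPM) and Nfe2 (259.9 ± 29.8 TPM), regulators of red cells and megakaryocytes, came next, and Spi1, the PU.1 factor of myeloid and B cells, stood at 108 ± 8.21 TPM. Gata1 over Spi1 was 2.47, 2.57, 2.30 and 2.65, and so varied little. Pax5, the B cell factor, was lowest of those named at 3.43 ± 3.02 TPM, and at 1.93 TPM without replicate 3. Of 16 receptors for cytokines and transferrin, 15 were detected throughout, with Epor at 156 TPM first, Tfrc, which imports iron, second at 93.3 ± 26.6 TPM, and the G-CSF receptor Csf3r at 35.4 ± 11.7 TPM and the M-CSF receptor Csf1r at 22.6 ± 4.53 TPM among those below them.

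Cell division genes were abundant. All 20 members of the proliferation list were above the floor in every library, against 54.8% of protein-coding genes. The median was 223 TPM and the sum 8133 ± 964 CPM. Rrm2, the ribonucleotide reductase subunit of S phase, was at 901, 503, 985 and 870 TPM, Pcna, the sliding clamp of replication, at 389, 401, 486 and 490 TPM, and Mki67, the mitotic chromosome coat, at 84.6, 83.1, 128 and 107 TPM. Replicate 2 was the lowest library for 16 of the 20, against 33.5% of detected protein-coding genes.

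**Figure D3:**
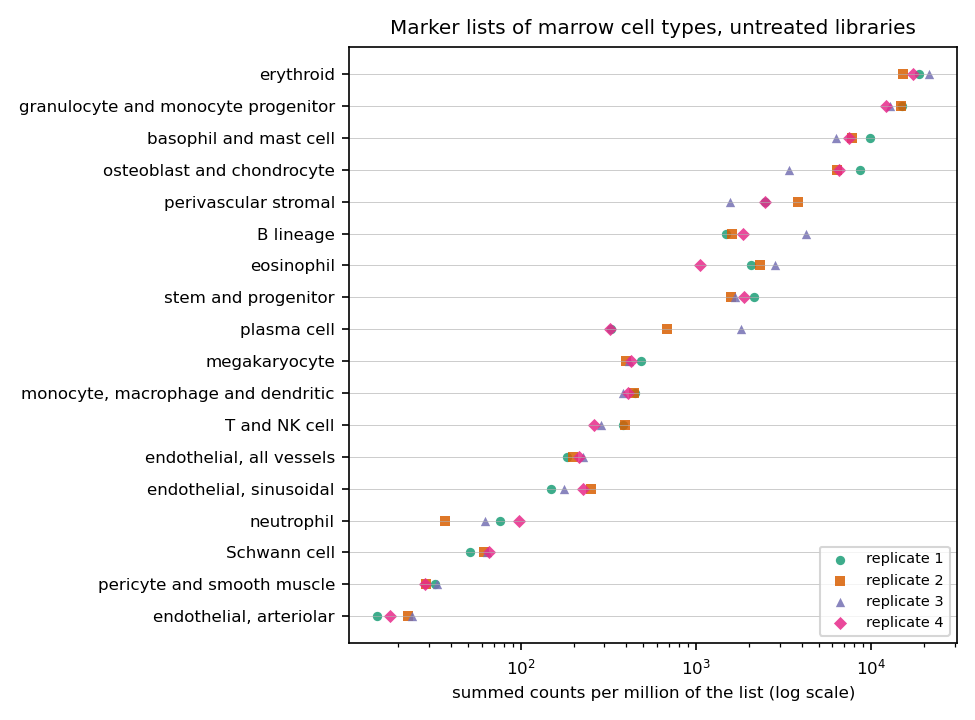
Summed CPM (horizontal, log scale) of 18 marker lists, ordered by mean, with 1 symbol for each untreated library. The erythroid list leads at 18119, the 2 lists next to it are granulocyte and basophil, and the endothelial list sums to 205; lists differ in length and share some genes, so the sums are not cell fractions.

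Stromal and bone-forming cells were also represented. The osteoblast and chondrocyte list summed to 8615, 6366, 3400 and 6544 CPM, and the perivascular stromal list to 2484, 3827, 1568 and 2476 CPM. Spp1, osteopontin, was at 1466, 1985, 956 and 1027 TPM, Bglap, osteocalcin, at 1520.3, 892, 347 and 786 TPM (its copy Bglap2 may share reads), and Ibsp, bone sialoprotein, at 871, 987, 589.8 and 763 TPM. The collagen I chains Col1a1 and Col1a2 stood at 607 ± 294 and 463 ± 212 TPM. The cartilage genes Acan (0, 4, 1 and 2 counts) and Sox9 (0, 19, 27 and 21 counts) were near the floor, although Col2a1, the cartilage collagen, was counted 1312, 208, 1770 and 989 times. Of the stromal list, 14 of 14 were detected in every library, against 54.8% of protein-coding genes, with a median of 36.1 TPM. Cxcl12, the chemokine that holds stem cells in marrow, was at 376, 536, 245 and 407 TPM, Adipoq, adiponectin, at 245, 520.1, 159 and 359 TPM, and Lepr, the leptin receptor, at 30.8, 27.9, 26.9 and 44.3 TPM. Hp, haptoglobin, ranked above them at 621 ± 333 TPM but is also made by granulocyte precursors and stands in both lists. Kitl, stem cell factor, was modest at 7.50 ± 2.40 TPM. Replicate 3 was the lowest library for 12 of the 14 stromal genes and for 8 of the 11 osteoblast genes detected throughout, against 20.1% of detected protein-coding genes.

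Mural and nerve-sheath genes were few. In the pericyte and smooth muscle list 4 of 9 were above the floor throughout, against 54.8% of protein-coding genes. The sum was 30.7 ± 2.60 CPM, and Myl9, a myosin light chain that platelets also hold, made up 60.3% of it. Acta2, smooth muscle actin, was counted 1, 28, 20 and 36 times, and Myh11, smooth muscle myosin, 0, 1, 31 and 2 times. In the Schwann cell list Mbp was 91.6% of the 60.8 ± 6.46 CPM.

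Factors by which niche cells act on blood cells were led by the stromal ones. In this list of 20, 14 were detected throughout, Cxcl12 gave 65.1% of the summed 2079 ± 642 CPM, and the median was 4.12 TPM. Igfbp4, a binding protein for insulin-like growth factors, stood at 209 ± 69.2 TPM, Tgfb1 at 38.4 ± 5.93 TPM, Angpt1, the activating ligand of Tek, at 31.04 ± 10.8 TPM and Csf1 at 27.0 ± 6.72 TPM. Bmp4 was at 34.3, 35.1, 7.29 and 28.1 TPM, lowest in replicate 3. The Notch ligand Jag1 was low at 0.553 ± 0.463 TPM.

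RNA of antigens that the sort selected against, or that lineage panels commonly hold, was present in part. Ptprc, which encodes CD45 (chromosome 1, 138062861 to 138175708), was counted 3273, 1578, 2213 and 2428 times, or 14.0, 6.89, 11.6 and 13.2 TPM. Its mean was 11.4 ± 3.18 TPM, and 28.9 TPM with the longest transcript as the length. The value lies between the median of all protein-coding genes and that of the detected ones under the main length. Ptprcap, the CD45-associated protein, was higher at 322 ± 70.8 TPM. Its gene overlaps Coro1b and Rps6kb2, and the kit does not mark strand, so reads of these genes may be shared or dropped by the counting. Itgam, the CD11b integrin, was low at 47, 76, 157 and 134 counts. The T cell antigens Cd3e (0, 0, 39 and 33 counts), Cd4 (0, 52, 54 and 0 counts) and Cd8a (1, 0, 0 and 12 counts) were each at or under the floor in at least 2 libraries. RNA counts do not give surface protein, which was what the sort measured.

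Genes of the B lineage were present in every library, with genes of early stages among them. All 16 members of the list were above the floor in every library, against 54.8% of protein-coding genes. The median was 97.4 TPM, and the sums were 1488, 1596, 4263 and 1856 CPM. Replicate 3 was the highest library for all 16 members, against 22.6% of detected protein-coding genes, and without it the mean sum was 1646 CPM in place of 2301. Vpreb1 was at 147, 205, 602 and 274 TPM and Igll1 at 172, 185, 549 and 244 TPM: these are chains of the surrogate light chain, made by pro-B and pre-B cells (Vpreb2 is a close copy of Vpreb1). Vpreb3 was at 262, 214, 786 and 321 TPM, Cd79a, a signalling chain of the B cell receptor, at 175, 216, 666 and 269 TPM, and Dntt, which adds bases at V(D)J joins, at 218, 153, 330.1 and 202 TPM. Ighm, the mu heavy chain, was counted 13387, 15204, 31957 and 14688 times. Ms4a1, the CD20 antigen of later B cells, was low at 12, 165, 381 and 60 counts (mean 2.30 TPM). Rag1 was as low, counted 134, 63, 407 and 106 times (mean 2.47 TPM), so these 2 genes do not tell stages apart. Again replicate 3 was the highest for each.

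Plasma cell genes were uneven, and 2 antibody genes were nearly all from replicates 2 and 3. Igha, the constant region of IgA (chromosome 12, 113254830 to 113260236), was counted 0, 882, 14563 and 10 times and Jchain, the joining chain of polymeric antibodies, 0, 1864, 4358 and 0 times. Igkc, the kappa constant region, was counted 1200, 7501, 16956 and 836 times. The plasma cell list summed to 326, 683, 1796 and 321 CPM, and its mean was 781 CPM with replicate 3 and 443 CPM without it. Xbp1, a factor of secretory cells in general, was even at 138 ± 8.37 TPM. Of the heavy chain constant counts, Ighm held 96.4% and 97.8% in replicates 1 and 4 but 86.7% in replicate 2 and 67.3% in replicate 3, where Igha held 30.7%.

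The kappa variable genes differed in the same libraries. Replicate 2 had 4585 counts over the 100 kappa V genes in the table, of which Igkv12-41 held 73.6% (95% Wilson interval 72.3 to 74.8) and Igkv4-53 16.0% (15.0 to 17.1). Replicate 3 had 6441, of which Igkv13-84 held 52.5% (51.3 to 53.8) and Igkv4-59 15.6% (14.8 to 16.5). In replicate 1, with 692 counts, the leading gene Igkv8-21 held 8.09% (6.28 to 10.4), and in replicate 4, with 490, Igkv19-93 held 16.3% (13.3 to 19.9). The heavy V genes showed Ighv1-82 at 53.9% (52.6 to 55.1) of 5940 counts in replicate 3 and Ighv1-26 at 33.6% (31.2 to 36.1) of 1464 in replicate 2, against leaders at 11.4% and 5.33% in replicates 1 and 4. The intervals cover counting error only, since amplified reads without molecular identifiers are not independent molecules, and V genes are similar enough to share reads.

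**Figure D4:**
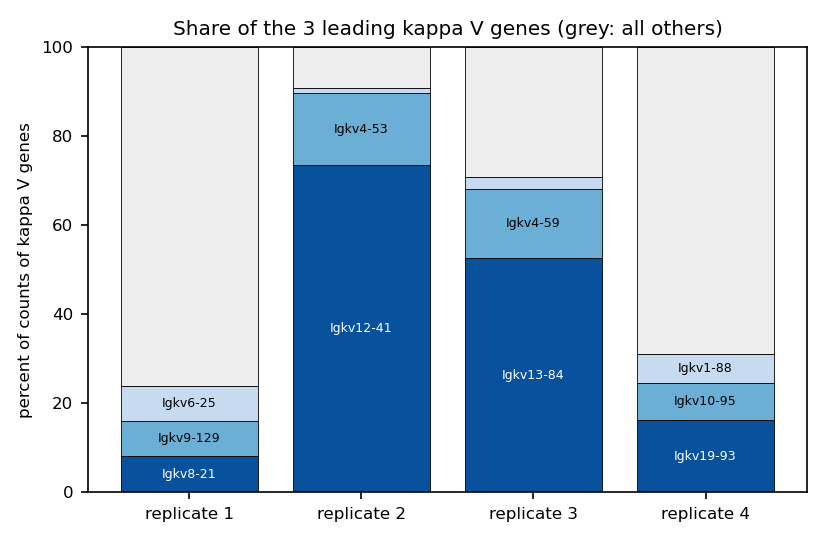
Share in percent of the counts of all kappa V genes held by the 3 leading genes of each untreated library (blue shades, labelled where above 4%) and by all others (grey). Igkv12-41 holds 73.6% in replicate 2 and Igkv13-84 52.5% in replicate 3, while no gene exceeds 16.3% in replicates 1 and 4.

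T and NK cell genes were scattered. The list summed to 330.0 ± 65.6 CPM, but Nkg7, a granule membrane protein that myeloid and basophil precursors also make, was 91.8% of it at 786 ± 172 TPM. Only 5 of 15 members were above the floor in every library, against 54.8% of protein-coding genes, and the median was 0.684 TPM. Trac, the T cell receptor alpha constant region, was counted 0, 11, 1 and 16 times and Ncr1, a receptor of NK cells, 0, 30, 3 and 0 times.

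Monocyte and macrophage genes stood at moderate to low levels. The list summed to 421 ± 30.02 CPM, and 13 of 16 members were detected throughout, against 54.8% of protein-coding genes. The median was 4.01 TPM, above the 1.97 TPM of all protein-coding genes and under the 17.0 TPM of the detected ones. Ly6c2 (72.6 ± 6.99 TPM) and Cd68 (30.1 ± 6.05 TPM), of monocytes and their precursors, were even. Siglech, of plasmacytoid dendritic cells, stood at 9.83 ± 3.098 TPM. The macrophage genes C1qa (0 in every library), C1qb (0, 37, 16 and 20 counts), Mrc1 (12, 20, 12 and 14 counts) and Adgre1 (165, 126, 181 and 24 counts) were low. Among 7 genes of MHC class II presentation, H2-DMa (75.8 ± 16.0 TPM), Cd74 (45.5, 34.4, 121 and 26.8 TPM) and H2-Ab1 (54.4 ± 16.4 TPM) led, and their regulator Ciita was counted 1, 0, 36 and 55 times. The H2-DMa gene overlaps Brd2, so reads of these 2 genes may be shared or dropped by the counting.

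Each gene counted once, the 236 genes of the 18 cell type lists held 5.60 ± 0.406% of all counts. Ribosomal protein genes held 3.89 ± 0.743%, genes of the mitochondrial chromosome 0.799 ± 0.0243% and long noncoding RNAs 2.76 ± 0.0268%. Malat1 led the last at 1039 ± 148 TPM, followed by Mir142hg, the host transcript of a microRNA of blood cells, at 289.98 ± 28.1 TPM and Gas5 at 206 ± 18.4 TPM.

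The spread between the 4 libraries was then described over all genes. Pairs of libraries correlated at 0.940 to 0.972 (Pearson, log2 CPM, 15827 genes), with replicates 3 and 4 the closest pair and 1 and 2 the most distant. The points are genes, which are not independent, and no p is given. The median biological coefficient of variation, the spread between libraries beyond counting noise as edgeR estimates it, was 32.3%. It was 42.1% for genes of 1 to 10 CPM, 27.5% for 10 to 100 CPM, 18.0% for 100 to 1000 CPM and 16.4% above. Of 10190 genes with a mean of at least 10 CPM, 77.3% lay within 2-fold between the highest and lowest library, and 331 (3.25%) lay more than 4-fold apart. That count was 131, 219 and 205 when replicates 1, 2 and 3 were left out in turn. Among the 331, replicate 1 was the lowest library for 146, a larger share than its 30.1% of the 10190 genes. Replicate 2 was the lowest for 98, a smaller share than its 34.8%. Replicate 3 was the highest library for 121 of the 331, a larger share than its 21.7%. The 331 included 11 of the 12 immunoglobulin genes at this level and 27 members of the gene lists. Of the 27, 5 were in the dissociation and immediate early list of 15 genes and 5 in the sex-linked list of 6. A further 4 were in the B lineage list of 16 and 4 in the plasma cell list of 12. How many list members reached a mean of 10 CPM was not counted, so these counts cannot be set against the 3.25%.

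The most even genes were of general cell function. Calm2, calmodulin, was counted 25680, 22709, 20449 and 20340 times, a ratio of 1.02 after scaling. Dus1l, a tRNA-modifying enzyme, Cox11, which inserts copper into cytochrome oxidase, and Lypla2, a thioesterase, had ratios of 1.02, 1.03 and 1.03.

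At the other end stood genes of the sex chromosomes. The Y-linked genes Ddx3y (3272, 1213, 2 and 0 counts), Eif2s3y (2448, 1202, 1 and 0), Uty (842, 428, 0 and 0) and Kdm5d (435, 256, 1 and 0) were present in replicates 1 and 2. Xist, the RNA of the inactive X chromosome, was counted 97, 43, 5241 and 5271 times, so it was high where the Y-linked genes were at or under the floor. Tsix overlaps it on the other strand, with 19, 21, 2890 and 2396 counts; the kit does not mark strand, so the reads of both cannot be told apart. The labels do not give the sex of the mice. Foxd4, a forkhead factor, was counted 686, 878, 2 and 0 times and Serpina3n, a secreted protease inhibitor, 632, 538, 0 and 21 times, with the same libraries high. Whether sex or anything else shared by those libraries had a part in the other differences described here was not tested.

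Another set of genes was at 0 or had few counts in 1 library only. Pheta1 (0, 495, 378 and 254 counts) and Ttc38 (0, 438, 310 and 382) were at 0 in replicate 1, where Rbsn (4, 456, 702 and 718), Ap4e1 (1, 290, 788 and 492) and Iqcb1 (6, 503, 435 and 279) were near the floor. Cd38, an ectoenzyme of many blood cells, was at 0 in replicate 2 alone (205, 0, 625 and 297 counts). In all, 7 genes with a mean of at least 10 CPM were at or under the floor in exactly 1 library and 7 in 2 or more.

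Some groups of genes differed together between libraries. Immediate early genes are switched on by cells within minutes of handling or stimulation. The dissociation and immediate early list also holds the heat shock genes Hspa8, Hspa1a and Hspa1b, and Hspa8 alone was 46.6% of its sum. Of its 14 genes detected throughout, 13 were lowest in replicate 2 and 10 highest in replicate 1. The shares among detected protein-coding genes were 33.5% and 27.2%. Fos was at 755, 112, 367 and 463 TPM, Egr1 at 54.5, 6.83, 22.1 and 42.3 TPM, Dusp1 at 251, 41.6, 148 and 157 TPM and Jun at 378, 132, 273 and 264 TPM. Ribosomal protein genes, a family added after these values were seen, ran the other way. Of the 82 detected throughout, 79 were highest in replicate 2 and 73 lowest in replicate 1, against 25.5% and 31.6%. The sums were 31458.4, 48959.5, 36129.4 and 38596.5 CPM. In replicate 2 the low immediate early, proliferation, erythroid and haem genes thus stood beside high ribosomal protein genes, and the part of any of these in the others was not tested.

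**Figure D5:**
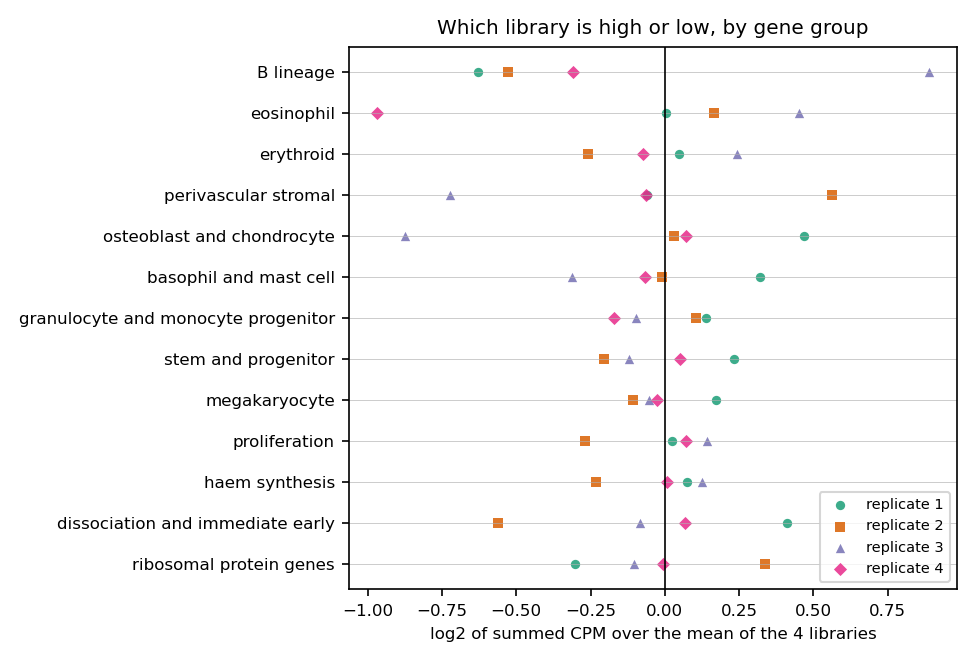
Log2 of the summed CPM of 13 gene groups in each untreated library over the mean of the 4 (horizontal), with 1 symbol for each library and a line at 0. B-lineage genes set replicate 3 apart to the right (4263 CPM against 1488 to 1856). Stromal and osteoblast genes set replicate 3 to the left. Ribosomal protein genes and the dissociation and immediate early list set replicate 2 to opposite sides.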

How the data were processed

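RNA of Lineage-, CD45-, TdTomato+ cells was extracted with a Qiagen micro kit and made into libraries with SMART-Seq v4 and Nextera XT, per the labels' protocols. The submitters' processing notes name STAR 2.7.7a, FastQC 0.11.9 and edgeR 3.36.0, and a human build (hg38) although the samples are mouse. The gene positions in the deposited table are those of mouse GENCODE M21 (GRCm38): all 54587 identifiers found there were placed identically. The authors deposited raw counts, whole numbers per gene, for 55335 genes, with no normalization; the program that counted them and its strand setting are not given in the sources used here. The deposited gene length column equals the merged exon length in 98.98% of 31762 genes, and it was used for 588 genes without an M21 identifier (160 genes had no length).

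CPM scales counts to a library total of 1000000, and TPM does so after division by merged exon length. A gene was called detected above 3 counts. For spread, library sizes were scaled by TMM factors, a lowest library under 3 counts was raised to 3 counts, and genes had a mean of at least 10 CPM. Biological coefficients of variation came from estimateDisp in edgeR 4.0.16 with filterByExpr (minimum count 10), which with 1 group of 4 keeps genes that reach this in all 4 libraries. DESeq2 1.42.0 gave the alternative dispersion. Log2 CPM used a prior count of 2. The scripts for spread were tested on simulated data with known answers. Python 3.11.15, numpy 2.4.6, pandas 2.3.3 and scipy 1.17.1 were used. Promoter windows are from the RefSeq table; Cdh5 and Pecam1 are named only.

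The 29 gene lists name 339 genes, of which 337 are in the table; several genes stand in more than 1 list. The untreated libraries and the lists were chosen with earlier results of these data known. Named genes are the 30 with the highest mean TPM, the label's markers, the most abundant and the undetected members of each list, the 20 most and 10 least variable genes and the 10 most abundant long noncoding RNAs, with predicted genes and pseudogenes left out of the ranks. Other list members, the ribosomal protein family, the embryonic globins and the V genes were added after their values were seen. Values of some list members are not reported here, though they stay in the lists' counts and sums.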

Additional observations from a re-analysis of the deposited data

Results flagged for a closer look

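Of 180 values checked (the sums of the gene lists, the shares of the most abundant genes and the levels of leading genes at or above 1 TPM), 10 had 1 library so far from its nearest neighbour, relative to the range of the 4, that it passed Dixon's 95% limit. Levels of single genes were checked in TPM. With CPM instead, an alternative chosen after seeing the data, 3 of the 8 genes that passed in TPM still passed (Igha, Cd2 and Gp9). Chance alone gives about 1 such value in 20 checked, and the values are not independent, so 10 of 180 is near that share.

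Of the 10, 3 were in genes of lymphocytes and antibodies, all with replicate 3 high. The B-lineage list summed to 4263 CPM there, and its nearest library to 1856 CPM. Igha, the IgA constant region, was at 526 TPM beside 26.4 TPM in the nearest library. Cd2, an adhesion receptor of lymphocytes, was at 29.4 TPM beside 7.11 TPM.

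Mpo was at 7205 TPM in replicate 1 beside 5976 TPM in the nearest library, but at 10159, 9272, 8556 and 8107 CPM, where no library stood apart. Others that passed in TPM were Calr, an endoplasmic reticulum chaperone, at 821 TPM in replicate 4 beside 767 TPM, Arpc5, an actin-branching subunit, at 438 TPM in replicate 2 beside 473 TPM, and Scaf1 at 10.6 TPM in replicate 2 beside 11.4 TPM. In CPM replicate 2 was instead the highest library for all 3 of these genes. Gp9 was lowest in replicate 4 at 48.75 TPM beside 80.2 TPM, and the long noncoding RNA AI506816 was highest there at 158 TPM beside 121 TPM, and in CPM also highest there, without passing. The top 1000 genes held 48.1% of counts in replicate 2 beside 45.8% in the nearest library.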

How the results depend on the processing

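No paired analysis was possible because the values come from 1 group of libraries and from no test. Over 36 summary values, 243 alternatives were tried. They were TMM, median-of-ratios or no scaling factors, totals without mitochondrial genes, other detection floors, thinning and leaving out each library. Of these, 8 moved by more than the SD used for that value or, for numbers of genes, by over 1.5 times. Leaving out 1 library cannot move a mean list sum or share by 1 SD, so those alternatives could not be among the 8. The plasma cell sum, which passed the 1.5-fold limit used below, is not among them. The median biological coefficient of variation was 82.2% with no filter on low counts and 27.9% with DESeq2, beside 32.3% in the report, and 30.7% to 35.7% with a library left out. The number of genes more than 4-fold apart was 32 among the 4804 genes with a mean of at least 50 CPM, and 131 to 285 with a library left out, beside 331. The mean correlation between libraries was 0.927 over genes with a mean of at least 10 CPM. DESeq2 used the same genes and libraries, and the cause of its lower value was not tested; the others rest on more or fewer genes or libraries.

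Of 389 gene levels, 105 moved by over 1 SD, and 24 by over 1.5 times, when the longest transcript replaced merged exons as the length; Ptprc (28.9 TPM), Mef2c (30.6 TPM), Myb (135 TPM), Cd34 (176 TPM), Col1a2 (852 TPM) and Vcam1 (43.1 TPM) are among them. A mean of 4 libraries cannot move by 1 SD when 1 is left out, so such means were read by the 1.5-fold limit. Of the list sums, that of the plasma cell list passed it (443 CPM without replicate 3, beside 781 CPM). Of 321 genes at or above 1 TPM, 50 moved by over 1.5 times with a library left out: 13 without replicate 1, 6 without replicate 2, 24 without replicate 3 and 7 without replicate 4. Without replicate 3, mean Igha was 8.94 TPM in place of 138 and mean Igkc 487 TPM in place of 1133. Depth limits any gene near 3 counts, such as Cdh5, whose level cannot be told from 0 in 2 libraries.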
